A study of Mus musculus with 4 samples.

Results

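The cells described here are mesenchymal cells of the mouse heart that carried RNA of Inmt, indolethylamine N-methyltransferase. They also stayed within the limits that the rule sets on marker genes of activated, perivascular and some other fibroblast states. They were chosen by their own counts of Inmt and of 7 other genes, so the levels of those 8 genes are no result. A cell was kept if it had 500 or more detected genes, 1000 or more UMIs (unique molecular identifiers, which count captured RNA molecules) and no more than 10% mitochondrial UMIs. A kept cell was called Inmt-positive when it held at least 2 Inmt UMIs, making up at least 3 per 10000 of its UMIs. It also had to have Pi16 under 20 per 10000, at most 1 UMI of Cthrc1, no UMI of Wif1, and fewer than 2 of the mural genes Rgs5, Kcnj8, Vtn and Myh11 detected. These conditions found 3699 of 30454 kept cells, 12.1%. They were compared with 15050 cells that passed the same conditions but held no Inmt UMI, called Inmt-zero cells below. A further 2695 cells passed the other conditions with Inmt between the cutoffs, and 9010 failed at least 1 of the other conditions.

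The study set out to describe how cardiac mesenchymal progenitors differ among themselves, and the cells came from 4 droplet libraries of reporter-positive heart cells of C57BL/6 mice. In 2 of them the cells were tdTomato+ and came from mice carrying Hic1 CreERT2 and a tdTomato reporter, 3 pooled hearts each, either undamaged or taken 7 days after ligation of the left anterior descending coronary artery (LAD), a surgical model of myocardial infarction. In these mice a cell is labelled by a recombinase driven from Hic1, so descendants stay labelled, and the time of induction is not given in the sources used here. The third library held citrine+ cells of Hic1 Citrine mice from 3 undamaged hearts, hashed by heart and pooled. The fourth held H2BGFP+ nuclear-reporter cells driven from the Pdgfra locus (strain B6.129S4-Pdgfratm11(EGFP)Sor/J), from 4 hearts hashed with antibodies to MHC I, 2 undamaged and 2 taken 7 days after ligation. Which hashtag marks which heart is not in the labels, so the PDGFRa library is a mixture of both conditions. No library is a biological replicate of another.

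Inmt moves a methyl group from S-adenosylmethionine to indolethylamines such as tryptamine and to thioethers, and so belongs to the methyl transfer and detoxification enzymes. Resting cardiac fibroblasts express the growth factor receptor Pdgfra and the transcription factor Tcf21 and make collagens, small proteoglycans and other matrix of the heart wall. After infarction a part of them turn on Postn and contractile genes such as Acta2, which is the activated or myofibroblast state. Hic1 is a transcriptional repressor that marks quiescent mesenchymal progenitors and pericytes in several tissues.

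Inmt lies on the minus strand of chromosome 6, at chr6:55170626-55175043 (GRCm38, which is mm10, GENCODE annotation). Its promoter window is shown because Inmt chose the cells, and that of complement C3 because its level followed Inmt across single cells in every library. Both are RefSeq sequences of GRCm38.p6 from 250 bases before to 50 bases after the annotated start, both on the minus strand, 5′ to 3′. The Inmt window is chr6:55174941-55175240 and the C3 window is chr17:57228087-57228386. Capitals mark matches to TATAAA, the core of the TATA box, and in C3 also TTGCNNAA, a form of the half-palindrome bound by C/EBP factors.
Inmt: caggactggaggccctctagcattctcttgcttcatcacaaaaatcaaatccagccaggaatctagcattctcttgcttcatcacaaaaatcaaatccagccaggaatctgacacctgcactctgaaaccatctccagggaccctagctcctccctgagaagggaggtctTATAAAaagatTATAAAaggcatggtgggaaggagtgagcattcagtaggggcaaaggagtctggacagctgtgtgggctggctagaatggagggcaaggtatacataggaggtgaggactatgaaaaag
C3: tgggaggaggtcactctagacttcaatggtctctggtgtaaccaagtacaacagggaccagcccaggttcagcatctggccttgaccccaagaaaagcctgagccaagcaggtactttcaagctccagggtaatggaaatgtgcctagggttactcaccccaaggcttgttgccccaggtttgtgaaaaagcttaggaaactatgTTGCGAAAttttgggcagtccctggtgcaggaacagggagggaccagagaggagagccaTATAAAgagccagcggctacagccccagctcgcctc
In the Inmt window TATAAA occurs at -80 and -69, counted from the start, and a run of 49 bases that begins at -235 is repeated from -189. In the C3 window TATAAA begins at 14 and TTGCNNAA at -45. The motifs searched, on both strands, were the TATA core TATAAA, the CCAAT box, the GC box GGGCGG, the steroid receptor core AGAACA and the C/EBP form TTGCNNAA. Of 32851 promoter windows of the same length, 13.6% held TATAAA and 10.8% TTGCNNAA. A match describes the letters of the window and shows no binding.

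Inmt-positive cells were a minority of every library, between 8.19% and 14.8% of the kept cells. They numbered 300 of 2786 undamaged tdTomato cells, 10.8% (exact 95% interval 9.64 to 11.98), and 349 of 4263 ligated tdTomato cells, 8.19% (exact 95% interval 7.38 to 9.05). In the citrine library they numbered 1191 of 10838, 10.99% (exact 95% interval 10.4 to 11.6), and in the PDGFRa library 1859 of 12567, 14.8% (exact 95% interval 14.2 to 15.4). The last 2 libraries are deeper, with medians of 8038.5 and 7729 UMIs per kept cell against 3453 and 3668, and a rule that asks for 2 UMIs can find more cells at depth. With every cell thinned to 3000 UMIs the shares were 10.3, 8.55, 8.301 and 10.5% in the same order, after leaving out 1005, 1433, 562 and 445 shallower cells. The ligated tdTomato library was lower than the undamaged one before thinning, and their intervals overlapped at 3000 UMIs. They did not overlap with cells thinned to 2000 UMIs (5.09 to 6.61% ligated against 7.3995 to 9.69% undamaged) or with Inmt from 5 per 10000 (6.24 to 7.797% against 8.89 to 11.2%). All these shares are of kept cells, which include the 852 undamaged and 1739 ligated tdTomato cells that failed the other conditions. Of the cells that passed them, 15.5% (exact 95% interval 13.9 to 17.2) were members in the undamaged library. In the ligated library it was 13.8% (12.5 to 15.2), and these 2 intervals overlapped. Each condition is 1 library of pooled hearts, so the difference in shares has no replicate check, and the intervals cover counting error only.

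Shares differed among hearts within a library as well. By hashtag, with 58.3% of citrine and 65.97% of PDGFRa cells assigned to 1 tag, they were 13.1, 11.4 and 8.59% in citrine hearts 1 to 3 and 10.2, 10.9, 22.5 and 20.4% in PDGFRa hearts 1 to 4. The intervals of PDGFRa hearts 3 and 4 lay above those of the other 2. The base of these shares includes cells that the rule bars, such as those with more than 1 Cthrc1 UMI. A heart with many barred cells thus has a lower share by the rule itself. PDGFRa hearts 1 to 4 held 260, 389, 176 and 288 members and 1033, 1268, 414 and 767 Inmt-zero cells, of 2538, 3560, 783 and 1409 cells. Postn in the Inmt-zero cells of those 4 hearts was at 1158, 1116, 222 and 318 CPM (UMIs per 1000000 UMIs summed over the cells of the class). The labels do not say which 2 were ligated, so these hearts are given as values and enter no comparison of conditions.

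**Figure D1:**
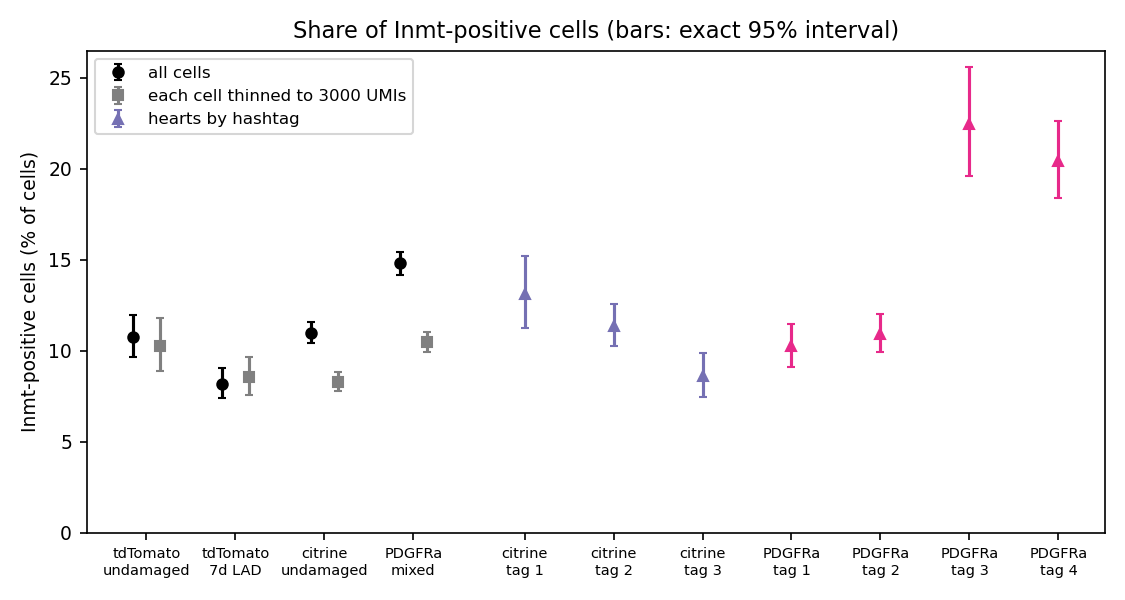
Inmt-positive cells as a percentage of kept cells, per library (black: all cells; grey: each cell thinned to 3000 UMIs) and per hashed heart (triangles), with exact 95% intervals that cover counting error. PDGFRa hearts 3 and 4, at 22.5 and 20.4%, stand above the other hearts and libraries. The base of each percentage includes cells that fail the other conditions of the rule.

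The Inmt level itself varied widely among members. Its median was 12.5, 10.1, 7.78 and 7.15 per 10000 UMIs in those of undamaged and ligated tdTomato hearts, citrine hearts and PDGFRa hearts, and the highest cell held 120 per 10000. Just inside the cutoff, 6, 18, 153 and 282 members held 3 to 4 per 10000, and just outside it 0, 1, 193 and 246 cells with at least 2 UMIs held 2 to 3. Cells with exactly 1 UMI numbered 139, 221, 697 and 976. Free RNA can place Inmt UMIs in cells that do not express it. Among cells with at least 3 mural genes, no Pdgfra UMI and at most 1 UMI of Dcn, 0.415, 0.396 and 2.33% held any Inmt UMI in the first 3 libraries, at median depths of 1797, 2262 and 2425 UMIs. None of these 241, 758 and 86 cells reached the cutoff, which allows shares of up to 1.24, 0.396 and 3.49% (3 cells of the total). The exact 95% upper bounds were 1.52, 0.485 and 4.199%. The PDGFRa library had no such cells. The choice of these cells matters: among all cells with 2 or more mural genes, whatever their Pdgfra and Dcn, 0 of 350, 11 of 1226, 9 of 289 and 5 of 51 reached the cutoff in the 4 libraries. Any Inmt UMI was seen in 22.7, 22.6, 27.2 and 35.8% of the cells that passed the other conditions, at median depths of 3516, 3776.5, 7902 and 6818 UMIs.

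The markers fitted a fibroblast label. All 10 fibroblast markers were detected in the members of each library, with a summed level of 56656 to 90089 CPM. Gsn led them at 26282 to 53018 CPM. In the Inmt-zero cells the same 10 genes summed to 44367.5 to 84079 CPM, so the label holds for both classes. Summed levels of the other marker lists in the members were 109 to 168 CPM for 8 pericyte genes, led by Steap4 at 69.8 to 89.1 CPM, 19.7 to 44.6 CPM for 8 smooth muscle genes and 31.1 to 48.02 CPM for 8 endothelial genes. They were 10.9 to 17.2 CPM for 10 macrophage genes, 16.4 to 33.8 CPM for 8 cardiomyocyte genes, 21.2 to 44.8 CPM for 7 Schwann genes and at most 5.48 CPM for the lymphocyte, neutrophil, epicardial and erythroid genes. Ptprc, the pan-leukocyte gene, was at 0 in the members of every library, as was the endothelial gene Cldn5. The macrophage gene Cd68 averaged 4.35 CPM in members and 2.98 CPM in Inmt-zero cells (edgeR adjusted p = 0.0423), and its part in the differences was not tested. Endothelial genes summed to 208 CPM in the Inmt-zero cells of the undamaged tdTomato library against 42.9 CPM in its members, and their part in the differences below was not tested. Libraries shared 0 to 36 cell barcodes in pairs. Doublets were not called, and leaving out cells above the 98th percentile of depth and those with 2 hashtags left most calls in place (899 higher and 947 lower genes against 939 and 1056, of which 834 and 899 were shared).

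Inmt-positive cells differed from Inmt-zero cells in many genes, with Fam150b, Lect1 and Figf among the higher and Postn and Acta2 among the lower. UMIs were summed per library and class and compared within library by edgeR's quasi-likelihood test, with Benjamini-Hochberg adjusted p-values and a threshold of 0.05. Of 11979 genes tested, 939 (7.84%) were higher and 1056 (8.82%) lower in Inmt-positive cells, 131 and 147 of them by over 2-fold. Of the called genes, 769 and 943 had the same direction in all 4 libraries. Without the citrine library the counts were 419 and 396, without the PDGFRa library 770 and 683. With unscaled library sizes in place of TMM factors they were 699 and 1565, so the split between higher and lower genes depends on the scaling. The p-values measure how the ratio between the 2 classes of a library varied over 4 pools of hearts. These pools also differ in reporter, condition and depth. Median depths of the 2 classes were 3548 and 3530, 4054 and 3713, 7518 and 7807, and 6165 and 7087.5 UMIs.

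Among called genes that reached 50 CPM in the higher class and had 1 direction in all libraries, Fam150b had the highest fitted fold. Fam150b, also called Alkal2, a ligand of the receptor tyrosine kinase ALK, was at 77.7, 81.1, 28.6 and 57.2 CPM in Inmt-positive cells, given here and below for undamaged tdTomato hearts, ligated tdTomato hearts, the citrine library and the PDGFRa library. In the Inmt-zero cells it was at 13.9, 16.2, 6.13 and 12.3 CPM, in the same order. Every library thus had the higher level in its Inmt-positive cells, a log2 ratio of 2.31 ± 0.12 (mean ± SD, n = 4 libraries) and a fitted fold of 5.004 (adjusted p = 2.30e-11). A Fam150b UMI was found in 16.7 to 22.9% of members and 4.01 to 6.48% of Inmt-zero cells, so most members had none captured.

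Lect1, the anti-angiogenic protein chondromodulin, was at 105, 118, 37.8 and 130.1 CPM against 16.5, 21.8, 8.34 and 31.4 CPM in the Inmt-zero cells (4.87-fold, adjusted p = 1.17e-10). Figf, the lymphatic growth factor VEGF-D, was at 175, 173, 82.7 and 63.3 against 34.9, 33.4, 16.3 and 27.2 CPM (4.104-fold, adjusted p = 1.66e-07). Its ratio was lowest in the PDGFRa library, at a log2 of 1.22 where the others lay above 2. Split by heart, the log2 ratio of Figf was 0.81, 0.82, 2.23 and 3.04 in PDGFRa hearts 1 to 4. The eosinophil chemokine Ccl11 was at 230.3, 312, 123 and 357 against 45.3, 88.7, 32.9 and 155 CPM (3.48-fold, adjusted p = 6.00e-08). Split by heart into 9 units, Ccl11 was higher in Inmt-positive cells of all 9, with log2 ratios from 0.022 to 2.35.

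Among regulators, Osr1, a zinc-finger transcription factor of mesenchymal progenitors, was at 242, 158, 148 and 105 against 82.6, 69.9, 53.5 and 38.3 CPM (2.797-fold, adjusted p = 4.59e-10). Its log2 ratio of 1.41 ± 0.16 (SD, n = 4) was steady between libraries. Gpc3, a heparan sulfate proteoglycan that binds growth factors, was 3.36-fold higher (adjusted p = 1.71e-09) and Slit3, a secreted ligand of Robo receptors, 2.76-fold (adjusted p = 6.87e-10). Adm, the vasodilator peptide adrenomedullin, was at 469.7, 173, 141 and 189 against 198, 75.2, 61.2 and 74.3 CPM, the narrowest spread of the 12 with a log2 ratio of 1.25 ± 0.066 (SD, n = 4; 2.49-fold, adjusted p = 5.46e-10). Sult5a1, a sulfotransferase, was 2.84-fold higher (adjusted p = 2.25e-09). Steap4, a metalloreductase that is also on the pericyte list, was 2.34-fold higher (adjusted p = 1.69e-08), while the pericyte genes Notch3 and Higd1b were lower, with fitted log2 ratios of -1.18 and -1.33.

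Complement C3 was the most abundant of the 12, at 1016, 1147, 1579.9 and 1146 CPM in members and 377, 412, 741 and 649 CPM in Inmt-zero cells (2.396-fold, adjusted p = 1.08e-07). All 4 libraries had more C3 in the members, by 1.77 to 2.78 times. Each of the 12 genes was higher in the members of all 9 units when the hashed libraries were split by heart. This is no separate check, since the 12 were chosen from the same cells for being higher in all 4 libraries.

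By the same conditions the lower genes were led by Postn, periostin, a matricellular protein of activated fibroblasts. Postn was at 18.3, 32.5, 18.6 and 108 CPM in members and 141, 312, 214 and 721 CPM in Inmt-zero cells, 8.17-fold lower (log2 ratio -3.09 ± 0.35, SD, n = 4; adjusted p = 5.04e-11). With cells limited to the middle of the depth range the Postn log2 ratio was -1.78. Acta2, smooth muscle actin, was at 8.22, 25.7, 11.1 and 3.95 against 58.4, 66.7, 55.2 and 25.5 CPM (4.73-fold lower, adjusted p = 2.42e-08). Both genes were lower in the members of all 4 libraries.

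Cytl1, a secreted cytokine-like protein, was at 4.57, 1.35, 27.2 and 2.64 against 240.05, 17.6, 61.6 and 30.5 CPM. It was lower in members of every library, but the log2 ratio ran from -5.45 to -1.18, and the fitted value of -2.21 (adjusted p = 1.31e-04) was -4.03 without the citrine library. The growth factor binding protein Igfbp5 was 3.898-fold lower (adjusted p = 6.42e-09) and the cell cycle regulator Ccnd1 2.85-fold lower (adjusted p = 1.76e-06). Ccnd1 was at 28.3, 25.02, 54.8 and 111 CPM in members and 122, 121, 201 and 216 CPM in Inmt-zero cells. The proliferation genes Top2a and Cdk1, chosen after their values were seen, averaged 0.341 and 0.167 CPM in members against 3.96 and 2.67 CPM (adjusted p = 4.47e-06 and 2.46e-05).

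The other 7 of the 12 lowest genes were 1.99 to 2.49-fold lower. They were Dkk3, a secreted relative of Wnt inhibitors, the collagen crosslinker Loxl2, the transcription factor Meox1, the matrix proteins Thbs1 and Aspn, the protease inhibitor Timp1 and the TWEAK receptor Tnfrsf12a. Meox1 was at 54.8, 43.3, 69.9 and 87.96 against 148, 139, 171 and 173 CPM (2.29-fold lower, adjusted p = 7.88e-08). Timp1 was at 86.8, 113, 65.2 and 86.3 against 151, 185, 116 and 321 CPM (adjusted p = 1.03e-04), with the PDGFRa library the lowest at a log2 ratio of -1.90. Split by heart, the log2 ratio of Timp1 was -2.31, -2.03, -1.11 and -1.05 in PDGFRa hearts 1 to 4. Among cells of both classes with no Postn, Acta2 or Tagln UMI, a restriction chosen after the data were seen, Timp1 no longer passed the test (log2 ratio -0.041). Meox1 and Dkk3 remained lower there, at -0.56 and -0.62.

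**Figure D2:**
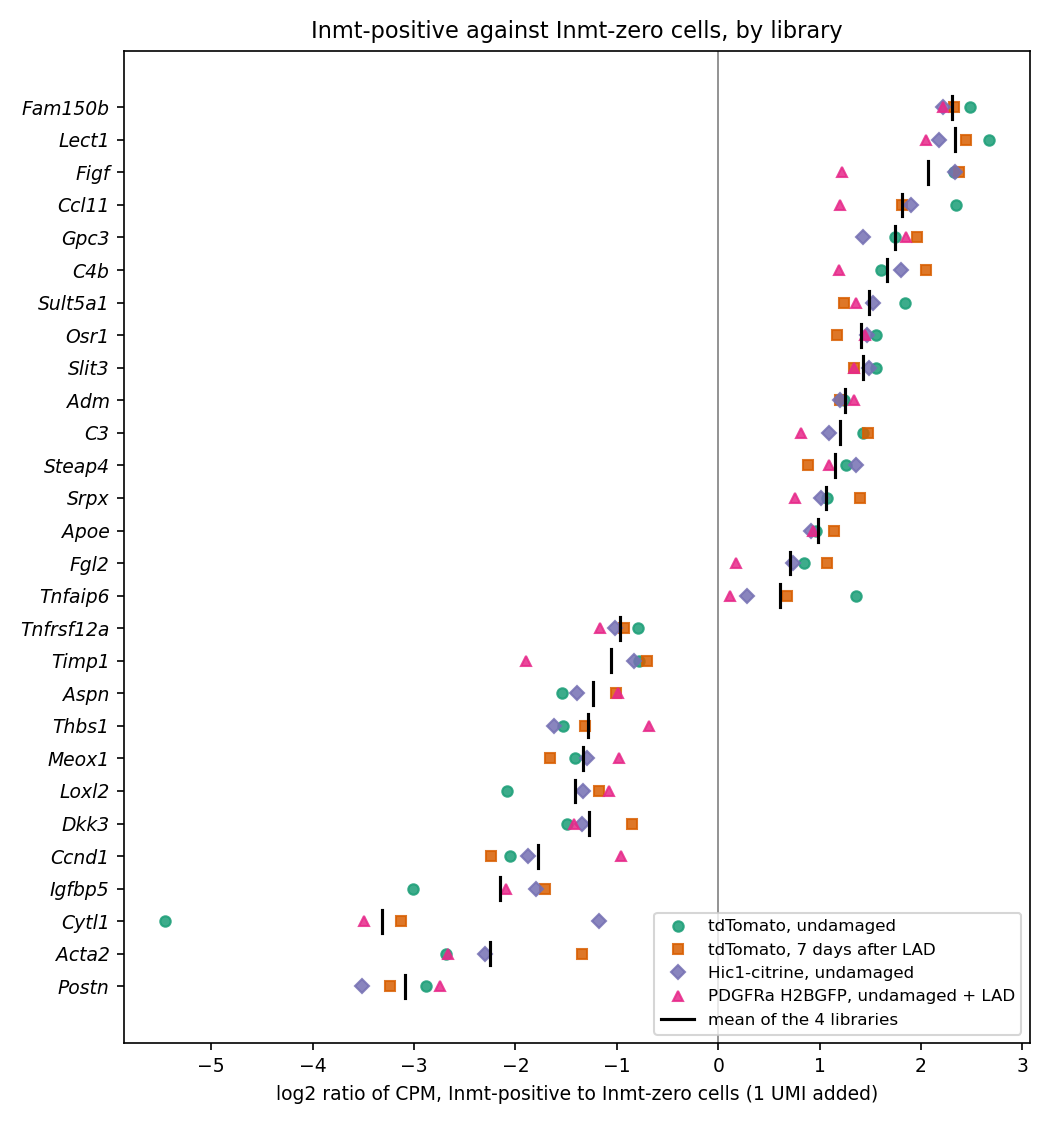
Log2 ratio of CPM in Inmt-positive to Inmt-zero cells of the same library, 1 UMI added, for the 12 highest and 12 lowest genes and the marker genes Srpx, Apoe, Fgl2 and Tnfaip6. Each symbol is 1 library and the bar is the mean of 4. All 4 symbols lie on the same side of 0 for each gene, which the choice of the 12 highest and 12 lowest required. Cytl1 has the widest spread, from -5.45 to -1.18.

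The marker genes given with the definition of these cells were also higher in them, which is stated as a description since they were chosen for it. Apoe, the lipid-carrying apolipoprotein E, was at 14359.9, 11368, 7383 and 5703 CPM in members against 7349, 5152, 3919 and 2989 CPM. C4b, the complement component, was at 95.03, 233, 260.2 and 197 against 31.4, 56.3, 74.7 and 86.3 CPM. Srpx, a sushi-repeat protein, was at 234, 233, 208 and 183 against 111, 88.4, 104 and 108 CPM. These 3 differed clearly in each library, whereas Fgl2 and Tnfaip6 had ratios near 1 in the PDGFRa library, at 196 against 174 and 340.4 against 314 CPM. Split by heart, Tnfaip6 was higher in members of 7 of 9 units and Fgl2 in 8 of 9. The PDGFRa hearts were unlike each other. In hearts 1 to 4 the log2 ratio was -0.20, 0.039, 0.85 and 0.79 for Tnfaip6 and -0.18, 0.25, 0.93 and 0.84 for Fgl2.

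Fibroblast identity was kept in the members, with some regulators higher and others lower. Of 14 identity genes and transcription factors, 7 were higher, 3 lower and 4 did not pass the test. The median log2 ratio was 0.12, beside -0.0021 over all genes tested. Over all genes tested 7.84% were higher and 8.82% lower, and the counts of this list and those below stand beside these shares. Counts of 1 or 2 genes in a list lie near them. Pdgfra was at 347, 266, 525 and 230.03 against 278, 219, 384 and 168 CPM (1.37-fold, adjusted p = 2.99e-05). Nr2f2, a nuclear receptor, was 1.37-fold higher (adjusted p = 6.58e-04), which did not pass without the citrine library. Tbx20, a cardiac T-box factor, was 1.55-fold lower (adjusted p = 2.08e-05) and Fstl1, a secreted follistatin-like protein, 1.58-fold lower (adjusted p = 4.06e-07). Hic1, Ddr2, Gata4 and Foxp1 did not pass, with fitted log2 ratios of 0.031, -0.048, -0.036 and -0.011.

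Enzymes of methyl transfer and detoxification, the class Inmt belongs to, were higher where they passed the test. Of 24 measured, 12 were higher, 12 did not pass and none was lower (median log2 ratio 0.23). The drug-oxidizing monooxygenase Fmo2 was at 222, 159.6, 429 and 509.7 against 112, 77.7, 233 and 249 CPM (2.06-fold, adjusted p = 1.41e-08). The microsomal glutathione transferase Mgst1 was 1.62-fold higher (adjusted p = 2.81e-07), the secreted glutathione peroxidase Gpx3 1.56-fold (adjusted p = 2.81e-07) and Por, the electron donor of cytochromes P450, 1.54-fold (adjusted p = 1.50e-05). The methyltransferases Nnmt and Tpmt did not pass, with fitted log2 ratios of 0.11 and 0.053. Nor did the enzymes that make and recycle the methyl donor, with Mat2a at 0.017, Mat2b at 0.13 and Ahcy at 0.19.

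Lipid and complement genes followed the same direction. Of 15 lipid handling genes tested, 9 were higher and none lower (median 0.29), among them the lipid carrier Apod (1.89-fold, adjusted p = 2.04e-04), the phospholipid transfer protein Pltp (1.505-fold, adjusted p = 1.14e-04) and lipoprotein lipase Lpl (1.33-fold, adjusted p = 2.56e-05). Apod was at 97.8, 241, 165 and 229.8 against 112, 100.8, 97.4 and 100.2 CPM, so the undamaged tdTomato library went the other way. Of 12 complement genes, 8 were higher and 2 lower (median 0.71), C4b among the former. C7, of the membrane attack complex, was at 26.5, 23.7, 91.8 and 212 against 16.9, 11.3, 51.5 and 87.2 CPM (2.13-fold, adjusted p = 3.42e-07). The classical pathway protease C1s1 was 1.91-fold higher (adjusted p = 4.67e-08), and the regulator Serping1 had a log2 ratio of 0.60. The 2 lower genes were Clu (-1.25) and the membrane inhibitor Cd59a (-0.73).

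Of 17 chemokine and cytokine genes, 5 were higher and 4 lower (median 0.18). The lower count depended on the setting, with 1 lower by DESeq2 or without the citrine library, 2 without the PDGFRa library and 6 without the undamaged tdTomato library. Cxcl12, the homeostatic ligand of CXCR4, was at 378, 642, 172 and 93.5 against 192, 262, 90.4 and 93.9 CPM (1.81-fold, adjusted p = 5.99e-04). It was higher in members of 3 libraries but not of the PDGFRa library taken as a whole. Split by heart, its log2 ratio was -0.11, -0.46, 1.24 and 0.81 in PDGFRa hearts 1 to 4. Ccl19, the ligand of CCR7, was 1.71-fold higher (adjusted p = 7.19e-04) and did not pass without the undamaged tdTomato library, where it was at 231 against 108 CPM, or with DESeq2. The neutrophil chemokine Cxcl2 was lower (fitted log2 ratio -1.63, adjusted p = 0.0126), which rested on the PDGFRa library, without which the ratio was 0.017. It did not pass with DESeq2 (-0.76) or without the citrine library (-1.47), and was -2.49 without the ligated tdTomato library. The lower cytokines Il34 and Lif had log2 ratios of -1.76 and -1.16.

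Matrix genes were not uniform. Of 14 fibrillar collagen and elastic matrix genes, 3 were higher and 7 lower (median -0.28). The elastic fibre proteins Fbln1 and Fbln5 were 1.801 and 1.56-fold higher (adjusted p = 2.40e-06 and 4.35e-06), while Mfap5 and Col5a3 were 1.75 and 1.56-fold lower (adjusted p = 2.81e-07 and 5.81e-04). Col1a1, Col1a2 and Col3a1 did not pass, at log2 ratios of -0.32, -0.07 and -0.19. Of 14 basement membrane genes, 3 were higher and 6 lower (median -0.21), with Col15a1 1.53-fold lower (adjusted p = 1.19e-06) and Col4a1 1.35-fold lower (adjusted p = 7.80e-05). Of 10 small leucine-rich proteoglycans, 5 were higher and 2 lower (median 0.21). Omd, Podn and Ogn were 1.796, 1.72 and 1.45-fold higher (adjusted p = 1.85e-06, 3.10e-07 and 4.01e-06), and Aspn and Bgn were lower.

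Hyaluronan genes were mostly lower, 7 of 11 with 1 higher (median -0.41). The synthase Has2 was at 6.396, 6.08, 15.9 and 12.2 against 11.9, 11.7, 33.1 and 34.2 CPM (2.298-fold lower, adjusted p = 9.34e-07) and the hyaluronan-binding proteoglycan Vcan was 1.77-fold lower (adjusted p = 2.65e-07). The higher gene was Tnfaip6, a marker in the definition. Has1 (log2 ratio -0.65, adjusted p = 0.0204) was at 26.7 against 62.1 CPM in the PDGFRa library and had a log2 ratio of -0.021 without it. It also did not pass with DESeq2, without the citrine library or by heart, and in cells with no Postn, Acta2 or Tagln UMI its log2 ratio was 0.38.

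Genes of the progenitor-like state with high Sca1 were lower in members, 8 of 13 with none higher (median -0.40). Efhd1 was 2.43-fold lower (adjusted p = 3.35e-08), the sialomucin-like receptor Cd248 1.799-fold (adjusted p = 3.59e-07) and the axon guidance ligand Sema3c 1.62-fold (adjusted p = 5.12e-05). Pi16, another gene of that state, was limited by the rule and is not tested here. The Sca1 gene Ly6a itself did not pass, with a log2 ratio of -0.19.

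Activation and myofibroblast genes had the largest share of members called in 1 direction of the 17 lists, with 14 of 18 lower and none higher (median -1.14). Besides Postn and Acta2, the actin-binding Tagln was at 5.48, 2.704, 7.57 and 6.51 against 38.8, 42.6, 68.4 and 49.3 CPM (8.19-fold lower, adjusted p = 2.30e-11), and Spp1, Ddah1, Tnc and Runx1 had log2 ratios of -4.25, -3.18, -2.38 and -1.19. The rule had already limited Cthrc1 in both classes. This result depended on the cells and libraries used. Without the PDGFRa library 13 were lower and 3 higher (median -1.05). Among cells of both classes with no Postn, Acta2 or Tagln UMI, which were 67.5 to 93.3% of members and 50.4 to 81.3% of Inmt-zero cells, 2 of 12 tested genes of the list were lower and 3 higher (median 0.081). That restriction removes cells by 3 genes of the list. With cells from the middle of the depth range, 8 were lower and 3 higher (median -0.50).

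Signalling genes pointed in several directions, beside the 7.84% of all genes that were higher and the 8.82% lower. Of 13 Wnt genes, 5 were higher and 2 lower (median 0.44). The Wnt amplifiers Rspo1 and Rspo3 had log2 ratios of 1.79 and 1.39, the inhibitor Sfrp1 was 1.54-fold higher (adjusted p = 0.001403) and the inhibitor Frzb 1.82-fold lower (adjusted p = 2.68e-05). Of 17 BMP and TGF-beta genes, 5 were higher and 4 lower (median 0.0069). The secreted antagonists Fst and Bmper were 2.97 and 1.94-fold higher (adjusted p = 1.91e-07 and 3.12e-06) and Chrdl1 had a log2 ratio of 1.89, while Ltbp2, a TGF-beta binding matrix protein, was 4.06-fold lower (adjusted p = 2.38e-09). Fst was at 80.4, 22.99, 31.9 and 38.5 against 18.7, 9.02, 9.51 and 17.2 CPM, higher in the members of each library.

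Of 17 growth factor genes, 8 were higher and 4 lower (median 0.31). The BMP-family ligand Gdf10 was at 21.02, 50.03, 31.3 and 22.6 against 3.71, 4.12, 7.005 and 4.499 CPM (5.54-fold, adjusted p = 2.42e-08). The neurotrophin Ntf3 was 2.51-fold higher (adjusted p = 3.87e-08) and Angpt1, a ligand of the endothelial receptor Tie2, 2.04-fold (adjusted p = 2.66e-08). A pair of enzymes at low levels, chosen after their values were seen, had wide ratios: the estrogen sulfotransferase Sult1e1 averaged 14.3 against 0.134 CPM (adjusted p = 2.65e-07) and the metalloprotease Adam33 8.24 against 0.6901 CPM (adjusted p = 3.71e-06).

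Of 16 interferon response genes, 2 were higher and 1 lower (median -0.082), and Ifi27l2a was 1.51-fold lower (adjusted p = 4.61e-06). These counts are near the 7.84 and 8.82% of all genes. Of 19 immediate early and heat shock genes, which cell dissociation can induce, 11 were higher and 1 lower (median 0.20). Egr1 was at 2098, 2584, 2759 and 4522 against 1652, 2179, 2102 and 3446 CPM (1.33-fold, adjusted p = 1.22e-05). The part of dissociation in the other differences was not tested. Of 13 glycolysis genes, 2 were lower and none higher (median -0.076), also near the shares over all genes.

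Averaged over the 4 libraries, the differences of several leading genes were graded with the Inmt level. Members of each library were split into tertiles by Inmt per 10000, and cells with exactly 1 Inmt UMI, which are not members, were placed between the Inmt-zero cells and the lower tertile. Over Inmt-zero cells, cells with 1 UMI and the lower, middle and upper tertiles, Fam150b averaged 12.1, 28.9, 45.8, 57.1 and 83.4 CPM over the 4 libraries. Osr1 averaged 61.1, 93.1, 123, 161 and 213 CPM and C3 545, 879, 1146, 1209.7 and 1326 CPM across the same steps. The upper tertile was above the lower one in 4 of 4 libraries for Fam150b and Osr1 and in 3 of 4 for C3. Single libraries did not always rise at each step. Over the 3 tertiles Fam150b was at 52.9, 45.8 and 138 CPM in undamaged and 68.1, 98.3 and 79.9 CPM in ligated tdTomato members. C3 was at 1177, 1120 and 1136 CPM in the ligated ones.

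Apoe averaged 4852, 6781, 8455, 9895 and 11018 CPM over these steps. Postn averaged 347, 122, 36.8, 65.9 and 30.02 CPM, so most of its fall lay between Inmt-zero cells and the lower tertile. Meox1 averaged 158, 89.4, 78.3, 60.5 and 50.4 CPM and was lower in the upper than in the lower tertile of every library. Of the 12 highest genes, Slit3, C3 and Steap4 did not rank the upper above the lower tertile in 1 library each. Cells with few Inmt UMIs differ from the next step by sampling as well as by level, so these steps are a description and carry no test.

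**Figure D3:**
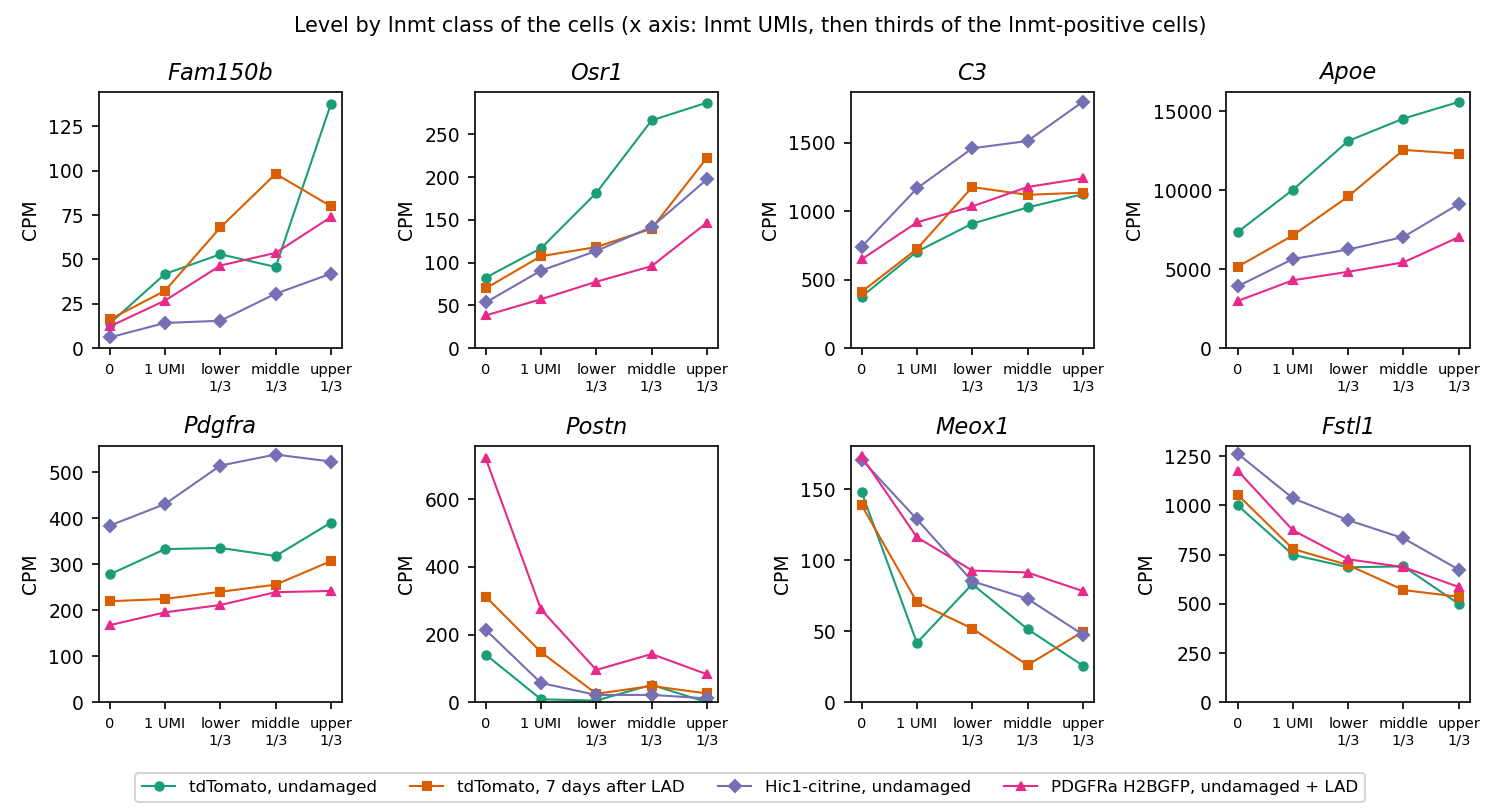
CPM of 8 genes in Inmt-zero cells, cells with 1 Inmt UMI, and the lower, middle and upper tertiles of Inmt-positive cells by Inmt per 10000 UMIs, 1 line per library. Fam150b, Osr1, C3 and Apoe are higher, and Postn, Meox1 and Fstl1 lower, in the upper tertile than in the Inmt-zero cells of each library.

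Across single cells that passed the other conditions, the genes whose level per 10000 UMIs ranked most like that of Inmt included the complement genes C3 and Serping1. Among 6242 genes found in at least 5% of these cells in each library, Dpep1, a dipeptidase of leukotriene and cystine metabolism, had the highest Spearman correlation with Inmt, averaging 0.297 over the 4 libraries (0.251 to 0.342). Apoe (0.279), C3 (0.271), Fbln1 (0.258) and Serping1 (0.249) came next, with Gpx3, Ifi205, Osr1 and Fam150b also among the 10 highest (0.223 to 0.196). The lowest was the LIM-domain protein Crip1, at -0.259. Cells of a library share its capture and depth, and sparse counts keep such values small, so they are descriptions.

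At 7 days after LAD ligation, the Inmt-positive tdTomato cells had more Cxcl14, Ccl7, Il6 and Jun RNA, and less Id1, Ddit4 and Cdkn1a RNA, than those of the undamaged library. Each condition was 1 library of 3 pooled hearts, with 300 and 349 members holding 1094368 and 1479103 UMIs, so ratios carry an exact 95% interval for counting error and no test, and ligation and other differences between the 2 libraries cannot be told apart. Of 8352 genes that reached 20 UMIs over both sums, 274 (3.28%) were over 2-fold higher and 369 (4.42%) over 2-fold lower after ligation. Requiring also that the interval exclude 1 left 214 (2.56%) and 286 (3.42%). At least 100 UMIs left 50 and 60 past 2-fold. In Inmt-zero cells of the same 2 libraries, 265 (2.3%) and 460 (4%) of 11499 genes passed 2-fold, 222 (1.93%) and 408 (3.55%) with an interval that excludes 1.

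Cxcl14, Cxcl2, Ccl7 and Il6 were among the 12 genes with the highest lower bounds. The chemokine Cxcl14 was at 141 CPM in the undamaged and 655 CPM in the ligated library in Inmt-positive cells, 4.66 times (3.92 to 5.55) the undamaged level, and 3.34 times (3.07 to 3.64) in Inmt-zero cells. The monocyte chemokine Ccl7 was at 259.5 CPM in the undamaged and 1049.96 CPM in the ligated library, 4.05 times (3.56 to 4.61), against 2.53 times (2.38 to 2.695) in Inmt-zero cells. Interleukin 6, Il6, was at 169 CPM in the undamaged and 667 CPM in the ligated library, 3.95 times (3.37 to 4.64), against 2.16 times (1.998 to 2.33). For Cxcl14, Ccl7 and Il6 the 2 classes' intervals did not overlap, and the difference between the classes was not tested across hearts. An Il6 UMI was found in 45 of 300 undamaged and 120 of 349 ligated members. Cxcl2 was 6.66 times (3.897 to 12.2) the undamaged level, but 1 cell held 61 of its 135 UMIs.

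The same genes in the hashed hearts give a second set of values with the condition unlabelled. In the members of PDGFRa hearts 1 to 4, Il6 was at 291, 354, 60.8 and 54.997 CPM and Ccl7 at 709, 669, 239.6 and 180.2 CPM. In citrine hearts 1 to 3, all undamaged, Il6 was at 45.5, 19.5 and 10.9 CPM and Ccl7 at 327, 159 and 240.03 CPM. PDGFRa hearts 1 and 2 held more of both than the other hashed hearts. Cxcl14 did not separate them, at 785, 825, 929 and 717 CPM in the PDGFRa hearts and 514, 1260.3 and 664 CPM in the citrine hearts.

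Jun, a subunit of the AP-1 transcription factor, was at 1701 CPM in the undamaged and 5503 CPM in the ligated library, 3.23 times (3.07 to 3.403). Socs3, the feedback inhibitor of cytokine signalling, was 2.52 times (2.35 to 2.701) the undamaged level, the acute-phase serpin Serpina3n 3.81 times (2.93 to 5.01) and the small heat shock protein Hspb1 3.76 times (2.91 to 4.91). In Inmt-zero cells Jun was 2.94 times (2.88 to 3.01), just below the interval in members, Socs3 2.51 times (2.42 to 2.602) and Hspb1 5.14 times (4.56 to 5.81). Nnmt, a methyltransferase of nicotinamide and like Inmt a user of S-adenosylmethionine, was 2.82 times (2.33 to 3.45) the undamaged level. H2afj, Ccdc85b and Phlda3 were 5.44, 4.44 and 3.92 times the undamaged level.

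Among genes lower after ligation, Id1, a direct BMP target, was at 87.7 CPM in the undamaged and 10.1 CPM in the ligated library, 0.116 times (0.0623 to 0.2003) the undamaged level, with 0.148 times (0.125 to 0.175) in Inmt-zero cells. Ddit4, an inhibitor of mTOR signalling, was 0.177 times (0.122 to 0.252), the lipase inhibitor Angptl4 0.281 times (0.196 to 0.398) and Adm 0.369 times (0.316 to 0.429). The cell cycle inhibitor Cdkn1a was at 389 CPM in the undamaged and 95.3 CPM in the ligated library, 0.245 times (0.201 to 0.297), against 0.561 times (0.526 to 0.597) in Inmt-zero cells. The elastin gene Eln was 0.397 times (0.347 to 0.454) in members against 0.672 times (0.6301 to 0.718) in Inmt-zero cells. Fst, Vit, Ccl19 and Taf1d were 0.286, 0.347, 0.249 and 0.263 times the undamaged level, and the transcript AY036118 0.217 times. The intervals of the 2 classes did not overlap for Cdkn1a, Eln, Ccl19 (0.192 to 0.319 in members against 0.377 to 0.493) and, narrowly, Taf1d (0.152 to 0.4399 against 0.441 to 0.656). Epyc, a small proteoglycan, had 63 UMIs in 22 undamaged members and none after ligation. The exact 95% upper bound of its ratio was 0.0446, and a floor of 3 UMIs in the ligated class gives 0.0352.

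Undamaged hearts of the citrine library often lay on the ligated side of the undamaged tdTomato library. In members, all 3 citrine hearts were above the undamaged tdTomato level for 7 of the 12 highest genes and below it for 10 of the 12 lowest. Jun was at 4119.8, 4766 and 3450.4 CPM in citrine hearts 1 to 3 and 6301, 6992, 6149 and 5548 CPM in PDGFRa hearts 1 to 4, beside the 1701 CPM of the undamaged tdTomato library. Hspb1 was at 1206, 909 and 1005 CPM in the citrine hearts, above both tdTomato libraries. H2afj, Phlda3, Serpina3n, Nnmt and Cxcl14 were the others of the 7. Id1 was at 27.3, 24.8 and 23.9 CPM in the citrine hearts and 18.95, 27.1, 32.3 and 18.5 CPM in the PDGFRa hearts, Ddit4 at 20.01, 35.02 and 29.7 CPM and 35.2, 29.03, 51.3 and 88.8 CPM. Cdkn1a was at 109, 114 and 94.999 CPM in the citrine and 323, 366, 245 and 387 CPM in the PDGFRa hearts, and Epyc at 9.096, 6.01 and 1.45 CPM in the citrine hearts. Between PDGFRa hearts 1 and 2 and hearts 3 and 4, Id1 and Cdkn1a overlapped, Jun was slightly higher in the first pair and Ddit4 lower. For Jun, Id1 and Ddit4 the undamaged tdTomato library lay apart from every hashed heart. Levels set across libraries also differ in reporter, barcode set and depth.

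**Figure D4:**
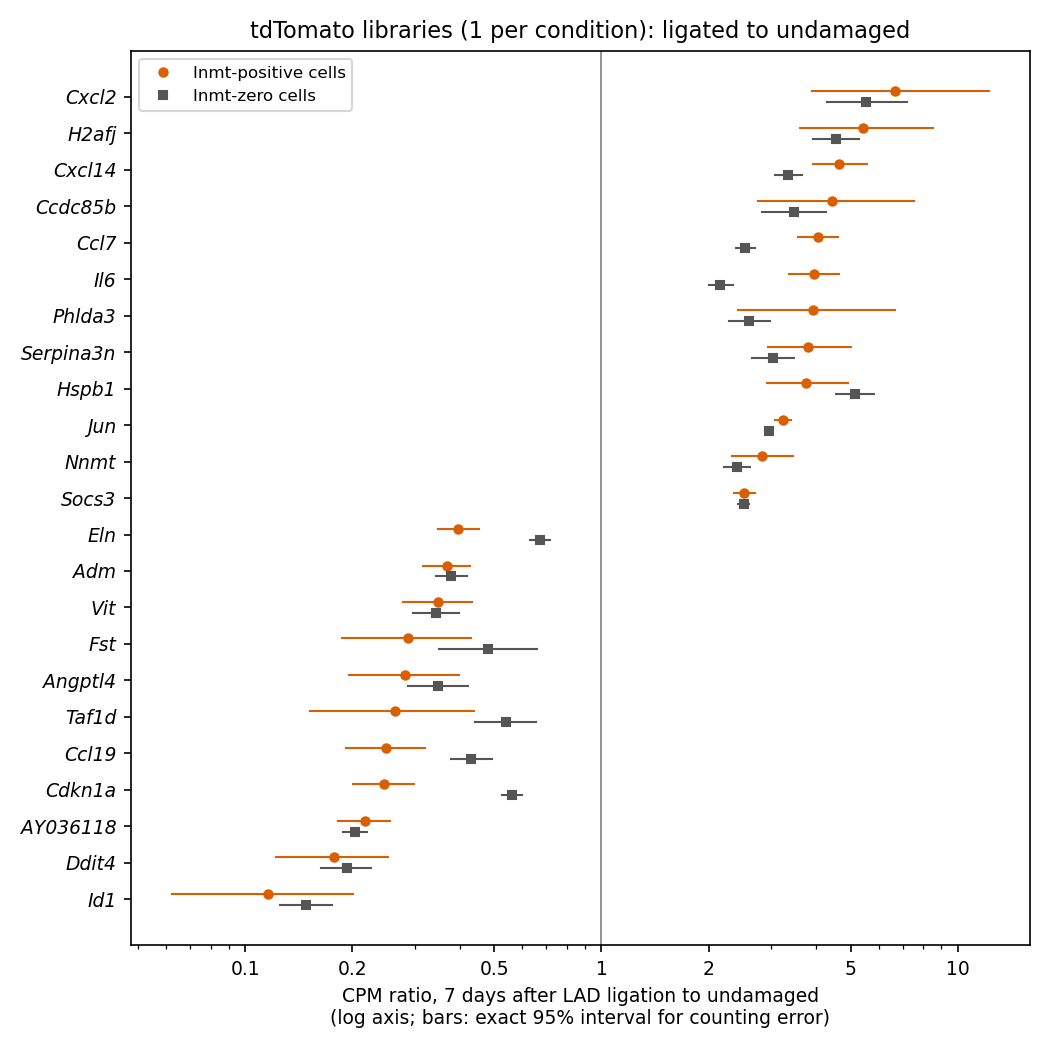
CPM ratio of the ligated to the undamaged tdTomato library on a log axis, in Inmt-positive (orange) and Inmt-zero cells (grey), with exact 95% intervals for counting error, for the genes with the highest lower bounds and the lowest upper bounds among Inmt-positive cells. Epyc, at 0 UMIs after ligation, is left out. Cxcl14, Il6 and Ccl7 show higher ratios in Inmt-positive than in Inmt-zero cells, and Cdkn1a and Eln lower ones.

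The genes that set members apart moved unevenly after ligation. Apoe was 0.792 times (0.775 to 0.809) and Fgl2 0.488 times (0.424 to 0.562) the undamaged level, Srpx 0.994 times (0.843 to 1.17) and Tnfaip6 0.847 times (0.763 to 0.941). C4b was the exception among the markers, at 95.03 CPM in the undamaged and 233 CPM in the ligated library, 2.45 times (1.96 to 3.08). C3 was 1.13 times (1.05 to 1.22) the undamaged level, and under it in cells of 2000 to 6000 UMIs (log2 ratio -0.025). Apod was at 97.8 CPM in the undamaged and 241 CPM in the ligated library in members, 2.46 times (1.98 to 3.08), where Inmt-zero cells gave 0.899 times (0.807 to 1.001).

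Over all genes of members, 3.28% were over 2-fold higher and 4.42% over 2-fold lower. By list, 5 of 15 chemokine and cytokine genes were over 2-fold higher in members and 1 lower (median log2 ratio 0.76, beside -0.056 over all genes). Of 19 immediate early and heat shock genes, 3 were over 2-fold higher and none lower (median 0.52). Of 12 BMP and TGF-beta genes, 4 were over 2-fold lower and none higher (median -0.27), and of 9 Wnt genes 3 were lower (median -0.58), with Wnt5a 0.261 times (0.123 to 0.517) the undamaged level. Inmt-zero cells gave similar counts, with 5 of 18 chemokine and cytokine genes over 2-fold higher and 2 lower. There 3 of 19 immediate early and heat shock genes were higher, and 5 of 17 BMP and TGF-beta genes and 3 of 12 Wnt genes lower. None of 14 basement membrane genes and none of 12 glycolysis genes passed 2-fold in members, nor did any of 14 and 13 in Inmt-zero cells. With so few genes these counts are near the shares over all genes.

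Of 18 activation genes, 10 had the 20 UMIs needed in members, and 2 of these were over 2-fold higher, beside 3.28% of all genes (median -0.28), against 6 of 18 higher and 1 lower in Inmt-zero cells. Cilp, a matrix protein of cartilage and injured heart, was at 4.57 CPM in the undamaged and 43.9 CPM in the ligated library, 9.62 times (3.92 to 30.6), on 5 and 65 UMIs. Acta2 was 3.12 times (1.48 to 7.35) the undamaged level, on 9 and 38 UMIs before and after ligation, and Postn 1.78 times (1.03 to 3.16), on 20 and 48 UMIs. Fn1, fibronectin, was 0.585 times (0.424 to 0.806) in members and 2.09 times (1.85 to 2.37) in Inmt-zero cells, so the values lay on opposite sides of 1. The rule keeps cells with more than 1 Cthrc1 UMI out of both classes, which limits what an activation gene can show here.

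Reporter RNA differed modestly between the classes. In undamaged tdTomato hearts the ratio of tdTomato CPM in members to that in Inmt-zero cells was 0.814 (0.764 to 0.866). After ligation it was 0.879 (0.841 to 0.917), so members held less in both. The reporter feature SSM2GFP in the PDGFRa library had a ratio of 1.36 (1.24 to 1.49), with a UMI in 30.6% of members and 25.6% of Inmt-zero cells. A tdTomato UMI was found in 92.7% of undamaged and 95.4% of ligated members, against 92.2 and 96.6% of Inmt-zero cells. Hic1 was at 24.7, 31.1, 286 and 38.2 CPM in members and 20.96, 36.6, 308 and 35.3 CPM in Inmt-zero cells of the 4 libraries, higher in members of 2 and lower in 2. Hashtag UMIs had medians of 30 and 30 in the 2 classes of the citrine library and 69 and 69 in those of the PDGFRa library.

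Hsd11b1, the enzyme that makes active corticosterone and the marker of another fibroblast group, was at 339.9, 647, 404 and 525 CPM in members and 422, 429, 388 and 368 CPM in Inmt-zero cells, with ratios of 0.805, 1.51, 1.04 and 1.43. It did not pass the test (log2 ratio 0.30, adjusted p = 0.0609), was lower in members of the undamaged tdTomato library, and was 1.903 times (1.69 to 2.15) the undamaged level in ligated members against 1.02 times (0.964 to 1.07) in Inmt-zero cells.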

How the data were processed

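Gene expression was measured by droplet single-cell RNA sequencing (Chromium 3′ kit v2 and NextSeq 500, per the labels' protocols) in 4 libraries. The deposited values are UMI counts per gene and cell barcode. Per the submitters' processing notes, Cell Ranger and mm10 (a modified reference, per the labels) were used. Seurat 2.1 is also named there, but the deposited counts are not normalized. Cell Ranger 3.0.2 is given in the file headers of the citrine and PDGFRa libraries, and no version for the others. Those 2 libraries also use another set of cell barcodes than the tdTomato libraries, and levels of some genes, Ccl19 and Eno1 among them, differ greatly between the pairs, so ratios were taken within a library or between the tdTomato libraries, and averages over libraries are descriptions. All libraries share 28001 features, of which 3 are reporters, and genes are named by the files' symbols, some now replaced.

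Members, gene lists and alternatives were chosen with earlier results of these data known. UMIs were summed per library and class, and genes with at least 10 UMIs in at least 4 of the 8 sums were tested with edgeR 4.0.16 (R 4.3.3; quasi-likelihood, TMM factors, library as a block since both classes of a library share its hearts). The genes of the rule stayed in the totals and out of the counts. DESeq2 1.42.0 was an alternative. Named genes were the 12 highest and 12 lowest among those with adjusted p under 0.05, 1 direction in 4 libraries and 50 CPM in the higher class, up to 4 per list of the 17 lists with 20 CPM or more, and the markers. Lists held 271 genes, 269 with a feature. Between the tdTomato libraries, the 12 genes with the highest lower bound and the 12 with the lowest upper bound of the ratio, at 50 CPM or more in 1 library, were named. Any other gene named was chosen after its values were seen. Hashtags were assigned with at least 10 hashtag UMIs, 75% of them of 1 tag. Intervals are exact (Clopper-Pearson for shares, conditional Poisson for ratios) and, like floors of 3 counts, cover counting error only. Libraries held 2853, 4292, 11338 and 13830 barcodes with 9885698, 18028737, 97467582 and 122716283 UMIs. Replicates are pools, not single hearts. On simulated counts of the 4-library test with 200 genes changed 2-fold, 92.5% were recovered over 12024 genes. Scripts ran in Python 3.11.15 with scipy 1.17.1, and figures were drawn with matplotlib 3.10.9. Promoter sequences are from RefSeq (GRCm38.p6), positions from GENCODE.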

Additional observations from a re-analysis of the deposited data

Results flagged for a closer look

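For 2 of the 24 leading genes, 1 library lay far from the other 3. Figf had a log2 ratio of Inmt-positive to Inmt-zero cells of 1.22 in the PDGFRa library, the lowest of the 4, and Timp1 had -1.90 there, also the lowest. Chance gives such a gap in about 1 of 20 groups of samples, and 24 genes were looked at. The hearts within the PDGFRa library were unlike each other. In hearts 1 to 4 the log2 ratio was 0.81, 0.82, 2.23 and 3.04 for Figf and -2.31, -2.03, -1.11 and -1.05 for Timp1.

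In the ligated tdTomato hearts, 4 genes moved past 2-fold in opposite directions in the 2 classes, with intervals on opposite sides of 1, and the difference was not tested. Clu was 15.5 times the undamaged level in Inmt-positive cells, on 21 UMIs after ligation against 1 UMI before (interval 2.499 to 643), and 0.229 times in Inmt-zero cells. Gpr89 was 2.31 times in Inmt-positive and 0.414 times in Inmt-zero cells, Bbs4 2.75 times in Inmt-positive and 0.408 times in Inmt-zero cells, and Zbtb2 0.296 times in Inmt-positive and 2.03 times in Inmt-zero cells. Each rests on few UMIs in 1 library per condition.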

How the results depend on the processing

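The counts of 939 higher and 1056 lower genes were 894 and 978 with DESeq2 and 699 and 1565 with edgeR without TMM factors, which put 30.9% of called genes on the higher side in place of 47.1%. Splitting the hashed libraries by heart gave 1252 and 1205, and leaving each library out in turn gave 419 to 836 and 396 to 945. In cells between the 25th and 75th percentile of depth 645 were higher and 498 lower, and in cells with no Postn, Acta2 or Tagln UMI, an alternative chosen after seeing the data, 787 and 744. Libraries served as the blocks that pair the 2 classes. With no replicate block edgeR called 0 higher and 2 lower, with 266 and 307 at an unadjusted p under 0.05, since library differences then enter the error.

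The counts past 2-fold after ligation were 50 and 60 with at least 100 UMIs and 777 and 2070 with at least 1 UMI and 1 added. Shares thinned to 3000 UMIs were 8.30% in the citrine and 10.5% in the PDGFRa library. Thinned to 2000 UMIs they were 8.49, 5.82, 5.95 and 7.497% in the order of the report. With Inmt from 5 per 10000 they were 6.99% in the ligated tdTomato, 8.31% in the citrine and 10.6% in the PDGFRa library.

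Directions turned in 3 cases: Cxcl2 without the PDGFRa library (log2 ratios of -2.49 to 0.017 over the libraries left out), Has1 in cells with no Postn, Acta2 or Tagln UMI (0.385), and C3 after ligation in cells of 2000 to 6000 UMIs (-0.025). Of the calls on 86 named genes, 82 were lost with no replicate block, and 11 genes lost theirs in at least 1 other setting (26 cases). The cause was not tested. Depth limits shares and genes under about 20 UMIs. With 1 library per condition and an unlabelled hashtag map, differences after ligation have no replicate check.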
